A study of Mus musculus with 21 samples.

Results

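The transcripts described here are the single-exon intergenic transcripts of mouse gametes and preimplantation embryos. They were taken from the long-read annotation of 7 stages merged into 1 set, and each has 1 exon, overlaps no GENCODE vM21 gene on either strand and does not lie within 2000 bases downstream of one. Of 22612 merged transcripts, 5485 had a single exon, 1618 of these overlapped no gene, 147 of those lay within 2000 bases downstream of a gene, and 1471 remained as members. The member closest to that limit lay 2012 bases downstream of a gene, and the furthest transcript left out lay at 1995 bases. All coordinates are on mm10.

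The stages were sperm of DBA/2J males, oocytes of C57/BL6J females, and 1-cell, 2-cell, 4-cell and 8-cell embryos and blastocysts of the cross ♂DBA/2J x ♀C57/BL6J. Females were superovulated with 7.5 IU of hormone, and collection after hCG was at 20 h for oocytes, 24 to 26 h for 1-cell, 46 to 48 h for 2-cell, 54 to 58 h for 4-cell, 68 to 70 h for 8-cell embryos and 94 to 96 h for blastocysts. No group carried a mutation or drug treatment, and gametes or embryos were pooled within a library. Each stage had 2 short-read libraries of amplified cDNA (14 in all) and 1 long-read pool. Levels are in TPM, which divides reads by transcript length and scales every library to the same total. The number of reads behind a TPM value is therefore unknown.

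Much of the RNA that oocytes and early embryos make outside annotated genes starts in long terminal repeats of old retroviruses, and the use of such starts changes as the maternal programme gives way to the embryonic one. A different source of intergenic RNA is the divergent promoter, an open stretch of DNA from which RNA polymerase starts in both directions, giving an mRNA on one strand and a short unspliced RNA on the other. A single-exon transcript in a cDNA library can also be the end of a longer unannotated transcript, or a product primed on genomic DNA or on an A-rich stretch. Because no genome sequence was used here, repeats, A-rich stretches and poly(A) signals at the members were not examined, and reads of repeated copies may be shared between transcripts.

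Sequence could be shown where a RefSeq promoter window (GRCm38.p6, 250 bases before to 50 after a gene start) covers the start of a member. On the strand opposite to the member, 26 members had such a window. The 6 whose TPM was highest in any library are printed because they show the head-to-head layout, 5′ to 3′ along the gene's strand, with the bases that the member covers in capitals and the rest in lower case.
Pigv window, chr4:133672598-133672897, minus strand: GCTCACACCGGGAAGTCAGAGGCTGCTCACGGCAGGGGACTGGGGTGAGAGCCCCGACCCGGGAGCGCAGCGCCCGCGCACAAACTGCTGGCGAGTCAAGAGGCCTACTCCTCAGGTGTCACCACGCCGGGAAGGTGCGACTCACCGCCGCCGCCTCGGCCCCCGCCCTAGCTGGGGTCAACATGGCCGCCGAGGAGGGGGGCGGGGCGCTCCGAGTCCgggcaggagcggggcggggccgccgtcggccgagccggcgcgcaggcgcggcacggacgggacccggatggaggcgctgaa
Tm9sf3 window, chr19:41263955-41264254, minus strand: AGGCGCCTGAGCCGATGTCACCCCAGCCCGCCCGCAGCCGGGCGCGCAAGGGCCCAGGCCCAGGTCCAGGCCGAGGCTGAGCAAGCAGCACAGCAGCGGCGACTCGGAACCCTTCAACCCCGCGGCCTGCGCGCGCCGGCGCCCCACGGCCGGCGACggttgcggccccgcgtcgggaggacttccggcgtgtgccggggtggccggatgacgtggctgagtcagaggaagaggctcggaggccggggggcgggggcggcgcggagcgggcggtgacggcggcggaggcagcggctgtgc
Bspry window, chr4:62479812-62480111, plus strand: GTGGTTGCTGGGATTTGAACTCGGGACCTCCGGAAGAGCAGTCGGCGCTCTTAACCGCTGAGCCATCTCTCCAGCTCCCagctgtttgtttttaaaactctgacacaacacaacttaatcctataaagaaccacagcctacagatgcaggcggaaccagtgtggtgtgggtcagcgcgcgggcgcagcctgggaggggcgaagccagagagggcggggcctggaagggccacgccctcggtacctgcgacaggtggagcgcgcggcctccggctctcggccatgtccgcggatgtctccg
Tbc1d22a window, chr15:86214209-86214508, plus strand: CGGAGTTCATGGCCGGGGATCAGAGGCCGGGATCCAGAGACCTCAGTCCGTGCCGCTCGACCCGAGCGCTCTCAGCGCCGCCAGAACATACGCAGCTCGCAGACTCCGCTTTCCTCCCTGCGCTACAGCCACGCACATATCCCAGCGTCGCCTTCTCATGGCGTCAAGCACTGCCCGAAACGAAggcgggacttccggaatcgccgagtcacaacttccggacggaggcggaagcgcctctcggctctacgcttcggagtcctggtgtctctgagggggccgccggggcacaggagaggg
Zfand5 window, chr19:21272028-21272327, plus strand: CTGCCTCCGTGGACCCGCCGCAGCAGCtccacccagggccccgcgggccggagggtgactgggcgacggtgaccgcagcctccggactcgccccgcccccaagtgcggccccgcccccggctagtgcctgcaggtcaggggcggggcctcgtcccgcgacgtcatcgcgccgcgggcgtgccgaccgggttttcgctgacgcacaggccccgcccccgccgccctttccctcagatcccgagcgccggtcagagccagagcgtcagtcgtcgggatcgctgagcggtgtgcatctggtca
Dbnl window, chr11:5788233-5788532, plus strand: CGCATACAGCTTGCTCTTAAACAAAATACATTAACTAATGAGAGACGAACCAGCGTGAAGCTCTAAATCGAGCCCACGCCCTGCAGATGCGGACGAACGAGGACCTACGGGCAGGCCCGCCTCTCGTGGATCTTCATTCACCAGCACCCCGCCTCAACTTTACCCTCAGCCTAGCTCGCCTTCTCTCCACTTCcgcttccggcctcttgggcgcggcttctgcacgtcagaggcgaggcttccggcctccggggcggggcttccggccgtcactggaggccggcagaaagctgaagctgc
In each of these windows the member runs leftwards out of the window and the gene rightwards. The starts lay 32 bases apart at Pigv, 94 at Tm9sf3, 172 at Bspry, 67 at Tbc1d22a, 224 at Zfand5 and 58 at Dbnl. The members there were TCONS_00014139, TCONS_00010313, TCONS_00014595, TCONS_00007513, TCONS_00010588 and TCONS_00003331. The windows held 38, 43, 23, 33, 40 and 25 CG dinucleotides in that order. Of the 26 windows, 22 (84.6%) held at least 10 CG, against 43.5% of all 32851 windows, and the medians were 24.5 and 7. The letters TATAAA, searched on both strands, occurred in 4 of the 26 (15.4%) and in 13.6% of all windows. The set of all windows also holds many genes that were not expressed here, so these shares describe the windows and are not a test.

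A same-strand window covered the start of 8 members, and 2 of these windows held at least 10 CG. The one of Gm32587, a RefSeq lncRNA, is printed because its member, TCONS_00006054, is among the named members that were lower in blastocysts. This member starts 83 bases before the RefSeq start, and the window holds 3 CG. The letters TATAAA occur only on the strand opposite to member and gene, within the bases that the member covers.
Gm32587 window, chr14:18463360-18463659, plus strand: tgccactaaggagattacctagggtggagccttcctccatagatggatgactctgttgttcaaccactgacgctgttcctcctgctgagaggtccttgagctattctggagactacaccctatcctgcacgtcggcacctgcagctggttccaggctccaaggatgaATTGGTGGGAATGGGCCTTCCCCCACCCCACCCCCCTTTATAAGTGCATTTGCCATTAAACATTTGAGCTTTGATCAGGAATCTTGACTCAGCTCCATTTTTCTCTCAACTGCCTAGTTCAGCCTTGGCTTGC
Here the capitals run to the right-hand end, since member and gene share the strand.

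The members were short, isolated and evenly split between strands. Their median length was 746 bases (quartiles 313 and 1454, range 57 to 6510), against 938 bases for the 3867 single-exon transcripts that overlap a gene and 713 for the 618 multi-exon intergenic transcripts. A total of 733 lay on the plus and 738 on the minus strand, 1437 were the only transcript of their merged locus, and 34 shared a locus with a multi-exon transcript. The nearest gene was at a median of 12409 bases (quartiles 5077 and 31644). In all, 363 members (24.7%) lay within 5000 bases of a gene and 240 (16.3%) over 50000 bases from any. The nearest gene lay on the opposite strand with the member on its 5′ side for 439 members (29.8%), and the other 3 arrangements held 315 to 360 members each. The membership rule had removed 147 transcripts within 2000 bases downstream of a gene. It thus shaped these distances and arrangements, which are no evidence of a preferred side. Chromosome 1 held 149 members, chromosome X 89 and chromosome Y 18, and 12 lay on unplaced scaffolds.

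RefSeq, a separate annotation, placed a gene over 182 of the members (12.4%, Wilson 95% interval 10.8 to 14.2%, counting error only). Of these, 92 overlapped a lncRNA, 61 a protein-coding gene, 19 a pseudogene, 8 another kind and 2 a miscellaneous RNA. The overlap with RefSeq was larger among members that start close to a gene of the other strand, at 33.9% of 62.

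Most members came from the long reads of 1 stage. A stage transcript was counted as support when it was a single exon on the same strand that contained the member, was contained in it, or overlapped it by 80% both ways. By that rule 1238 members (84.2%) were found in 1 stage, 167 in 2, 40 in 3, 17 in 4 and 9 in 5 stages. Of the single-exon transcripts that overlap a gene, 74.0% were found in 1 stage. The stages with most members found nowhere else were sperm (311), 2-cell (215) and blastocyst (204), and oocyte had the fewest (69). These numbers come from 1 long-read pool per stage and have no replicate.

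Short-read levels of the members found in a single stage were highest at that stage for 595 of 1230 with any reads (48.4%, 95% interval 45.6 to 51.2%). The share was 91.6% of 311 for sperm and 59.5% of 215 for 2-cell, and 13.0% of 69 for oocyte and 18.1% of 204 for blastocyst. Members found only in blastocyst were short, with a median of 331 bases and 70 of them under 200 bases. Those found only in sperm had a median of 983 bases. Support and level share the cDNA of the stage, so each is a description and not a check of the other.

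Some libraries stood apart in marker genes. The 5 measured genes of a list of 2-cell embryo genes (Zscan4d, Zscan4c, Zfp352, Tcstv3 and Gm8300, of 6 listed) summed to 19.0 TPM in 2-cell replicate 1 and 394 in 2-cell replicate 2, beside 19.4 and 25.1 in the 4-cell libraries. Oocyte markers (7 of 7 measured) summed to 5152 to 16686 TPM in oocytes and to at most 10.4 in sperm. Blastocyst markers (7 of 7) summed to 10559 to 37418 in blastocysts, 385 to 774 at 8-cell and 173 to 735 in sperm. In sperm Krt8 was at 48.4 and 288 TPM and Krt18 at 101 and 306, higher in replicate 2. Sperm markers (7 of 7) summed to 17339 to 21188 TPM in sperm and to at most 17.1 elsewhere. A list of epididymal epithelium and leukocyte genes, with 4 of 6 measured, summed to 73161 TPM in sperm replicate 1 and 14806 in replicate 2. Most of that was Cd74, an antigen presentation gene of leukocytes, at 71096 and 14459 TPM, and Ptprc, which marks leukocytes, was at 35.2 and 7.07. Of the other measured genes of this list, Crisp1 was at 2006 and 335 TPM in sperm. Defb42 was at 24.4 and 4.33 TPM in sperm and higher at 4-cell, at 45.7 and 41.1. None of the 6 cumulus cell genes had a transcript in the merged annotation, so that list says nothing about cumulus cells.

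Members held a share of the library's TPM that rose and fell with stage. They held 3.00 and 6.81% in the sperm libraries, 3.14 and 0.658% in oocytes, 9.32 and 9.39% at 1-cell, 12.98 and 14.2% at 2-cell, 4.35 and 7.16% at 4-cell, 3.79 and 2.83% at 8-cell, and 2.08 and 1.87% in blastocysts (replicates 1 and 2). Both 1-cell and both 2-cell libraries lay above every other library, and the 2 oocyte libraries had the largest ratio between replicates, while those of sperm lay furthest apart in percentage points. Multi-exon intergenic transcripts held 0.0992 to 1.97%. Without TCONS_00012549, the member with the highest level in 6 of the libraries, the 2-cell shares were 11.1 and 14.2%.

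**Figure D1:**
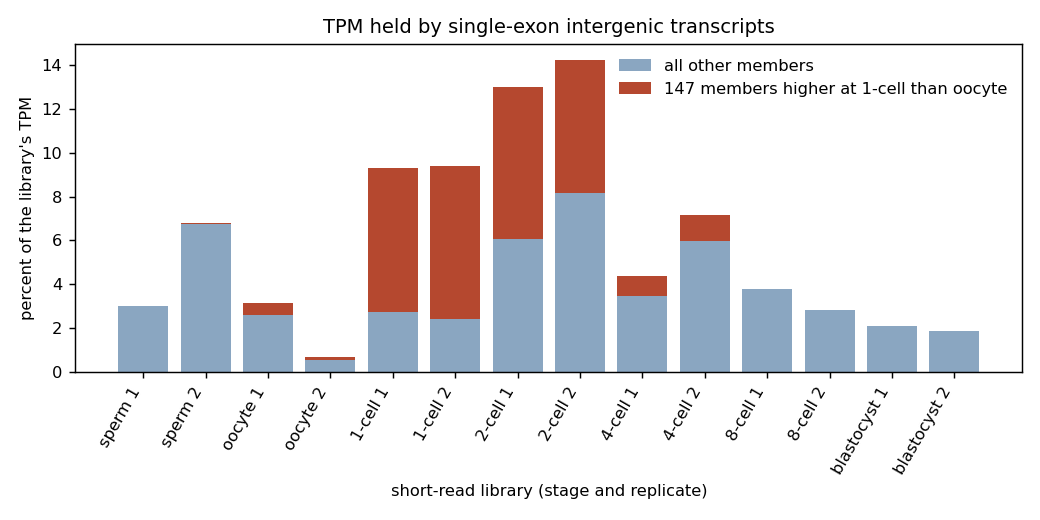
Percent of each short-read library's TPM (vertical axis) held by the single-exon intergenic transcripts, with stage and replicate on the horizontal axis. The red part is the 147 members that were higher at 1-cell than in oocytes, which held 6.59 and 6.97% of the TPM at 1-cell and 6.91 and 6.10% at 2-cell, and the blue part is all other members.

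The number of members with at least 1 TPM followed a later course. It was 786 and 987 in sperm, 588 and 376 in oocytes, 610 and 565 at 1-cell, 939 and 1212 at 2-cell, 1134 and 1168 at 4-cell, 1018 and 917 at 8-cell, and 881 and 580 in blastocysts. The 4-cell libraries and 2-cell replicate 2 had the most members detected, while the summed level had already fallen at 4-cell. The same libraries led among all merged transcripts, so this course was not particular to the members. Of all transcripts, 53.7 and 50.5% had at least 1 TPM in oocytes, 61.1 and 56.5% at 1-cell, and 69.3 and 84.7% at 2-cell. The shares of all transcripts were 76.1 and 75.6% at 4-cell and 70.1 and 68.6% at 8-cell. The paper lists more short-read sequences for 2-cell replicate 2 than for any other library. At 10 TPM or more there were 329 and 306 members at 1-cell and 597 and 635 at 4-cell. Thus 1-cell embryos had a larger summed level in fewer members. The 10 highest members held 33.1 and 36.0% of the members' TPM at 1-cell and 18.2 and 21.8% at 4-cell.

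Mean levels reached 1 TPM in at least 1 stage for 1389 members. They peaked most often in sperm (492, 35.4%, against 23.4% of all transcripts) and at 2-cell (370, 26.6%, against 17.7%). Sperm was also the most frequent peak among all transcripts. A peak in oocytes was the least frequent (31, 2.23%, against 10.9% of all transcripts). In all, 129 (9.29%, against 10.9%) peaked at 1-cell and 217 (15.6%, against 18.7%) at 4-cell. At 8-cell 81 (5.83%, against 8.26%) peaked, and in blastocysts 69 (4.97%, against 10.1%). The stage index tau, which is 0 for an even level and 1 for a level in a single stage, had a median of 0.65 for members and 0.549 for all transcripts. Replicate 1 and replicate 2 placed the peak in the same stage for 50.9% of 1348 members, so single assignments are loose. The share was 44.9% of 21409 for all transcripts.

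Changes were tested with limma on log2(TPM + 1) across all transcripts that reached 1 TPM in 2 or more libraries, and a transcript was called at a Benjamini-Hochberg adjusted p under 0.05. The p-values rest on the spread between the 2 pooled libraries of a stage, estimated for each transcript over all stages of a fit. This estimate was also moderated with that of the other transcripts. A p-value for 2 stages therefore rests in part on the spread within stages that it does not compare. A total of 1301 members passed the filter for the 5 embryonic transitions and 1368 for sperm against oocyte. The added 1 makes log2 changes of weakly expressed transcripts too small, so values in TPM are given first. In such pooled samples, fewer cells with an RNA and less of it per cell cannot be told apart. Over all transcripts tested the median change on the log2 scale was 0.15 on entry into the 1-cell stage, 0.75 into 2-cell, 0.01 into 4-cell, -0.39 into 8-cell, -0.23 into blastocyst and 0.56 for sperm over oocyte. The medians of the members were 0.13, 1.43, 0.03, -0.63, -0.60 and 1.11, in the same order.

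**Figure D2:**
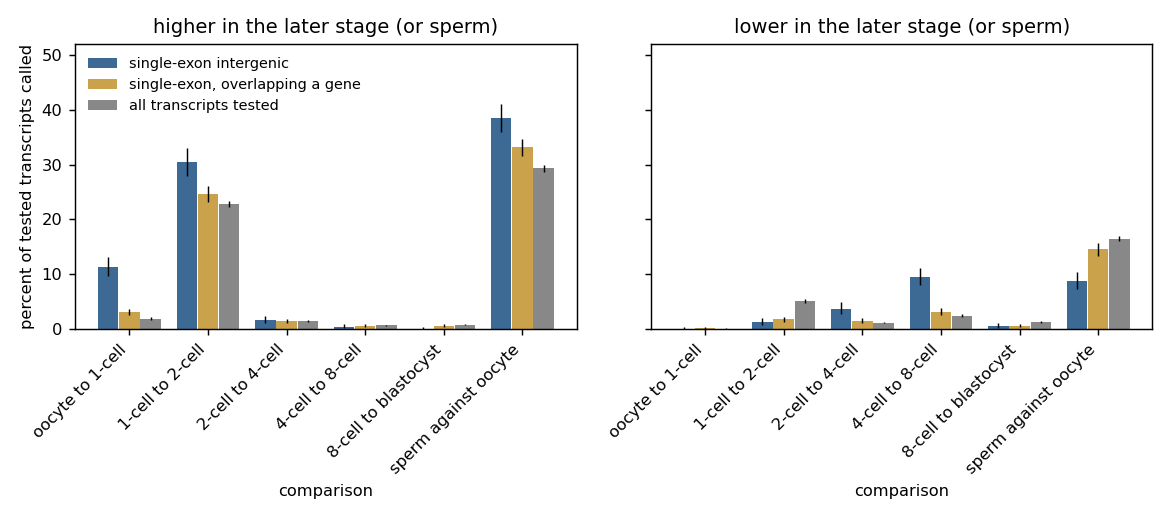
Percent of tested transcripts called (vertical axis) in each comparison, for single-exon intergenic transcripts, single-exon transcripts that overlap a gene, and all transcripts. Bars are shares and lines their Wilson 95% intervals (counting error only), with higher calls on the left and lower calls on the right. From oocyte to 1-cell 11.3% of members were higher against 1.92% of all transcripts, and from 4-cell to 8-cell 9.45% were lower against 2.44%.

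From oocyte to 1-cell, a minority of the members rose and none was called lower. Of 1301 tested, 147 (11.3%, 95% interval 9.69 to 13.1%) were higher, beside 1.92% of all 20250 transcripts tested and 3.09% of the single-exon transcripts that overlap a gene. No member was lower by limma at an adjusted p under 0.05, beside 0.084% of all transcripts, and 4 were lower at an unadjusted p under 0.05. Without oocyte replicate 2 only 1 member was called, without either 1-cell library 0, and in a fit on the 4 libraries alone 0. In the same fits, calls over all 20250 transcripts tested also fell, to 0 on the 4 libraries alone (406 in the main fit). Over all members tested, called or not, 363 (27.9%) had both 1-cell libraries above both oocyte libraries, close to the 24.7% of all transcripts tested.

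TCONS_00018703 rose most. This transcript of 1368 bases (chr7:27015107-27016474, minus strand, 12607 bases from Cyp2a12) had 0.906 and 2.77 TPM in oocytes and 173 and 253 TPM at 1-cell (log2 change 6.29, SE 0.72, adjusted p 0.0087). It went on to 531 and 848 TPM at 2-cell, 147 and 187 at 4-cell, and 0.613 and 3.10 at 8-cell. TCONS_00010370 (860 bases, chr19:48817906-48818765, plus strand) had 126 and 30.2 TPM in oocytes and 2763 and 2929 at 1-cell (log2 change 5.50, SE 0.77, adjusted p 0.0087). For TCONS_00016830 (1302 bases, chr6:78944009-78945310, plus strand) the values were 35.1 and 5.41 TPM in oocytes and 620.2 and 741 at 1-cell (log2 change 5.48, SE 0.83, adjusted p 0.0087). In all 3 the oocyte and 1-cell libraries stood far apart. As a ratio, the oocyte replicates differed from each other more than the 1-cell replicates did.

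As a set the 147 members described a short period. They held 0.564 and 0.0997% of the TPM in oocytes, 6.59 and 6.97% at 1-cell, 6.91 and 6.10% at 2-cell, 0.901 and 1.18% at 4-cell, 0.0199 and 0.0228% at 8-cell, and 0.00841 and 0.00234% in blastocysts. Sperm had 0.0220 and 0.0455%. The oocyte and 1-cell values chose the set, and the libraries of the other embryonic stages entered its choice through the spread and the filter, so all these shares are a description. All 147 had at least 1 TPM in each 1-cell and each 2-cell library, and 49 and 48 of them in the 8-cell libraries. Their highest mean lay at 1-cell for 74 and at 2-cell for 73. None was found in the long reads of sperm or blastocyst, and 81 were found in those of 2-cell.

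**Figure D3:**
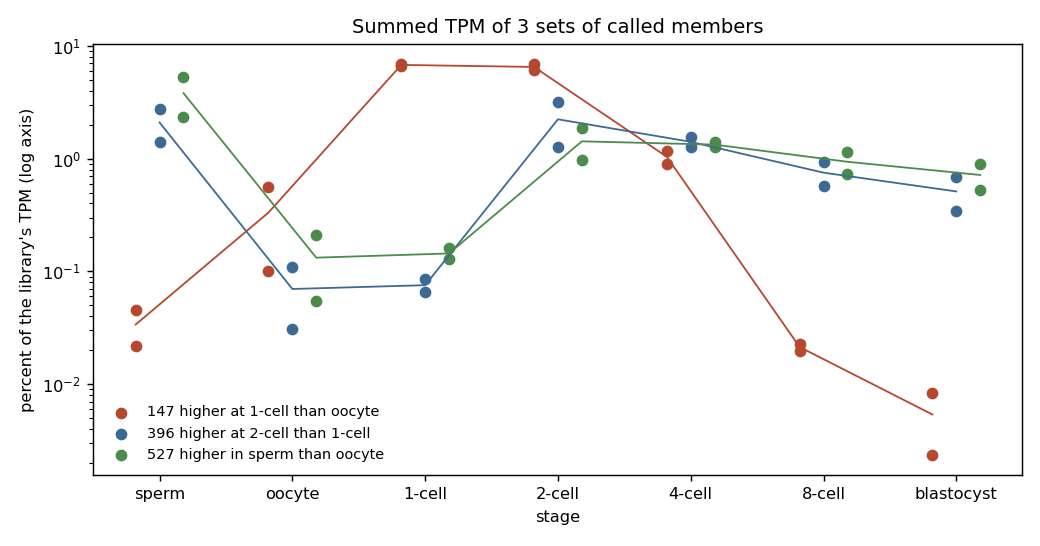
Percent of the library's TPM (log axis) held by 3 sets of called members at each stage, with a point per library and lines through the means of 2. The 147 members higher at 1-cell stayed between 6.10 and 6.97% from 1-cell to 2-cell and were at most 0.0228% from 8-cell on, while the sets called higher at 2-cell or in sperm kept at least 0.340% in every library from 2-cell on.

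The same members returned in the fall from 4-cell to 8-cell, a comparison that shares with oocyte against 1-cell the estimate of the spread but no library. There 123 of 1301 members (9.45%, 95% interval 7.98 to 11.2%) were lower, beside 2.44% of all transcripts, and 6 were higher, beside 0.681%. With quantile normalization the split was 118 lower and 24 higher. Of the 123, 101 were among the 147, which is 82.1% of the former and 68.7% of the latter. This overlap was counted for members only, so whether it is particular to them was not tested. Of the 396 members called higher at 2-cell, 13 (3.28%) were among the 123, beside 9.45% of all members tested. Hardly any call remained, among members or all transcripts tested, when any 1 of the 4 libraries of this comparison was left out. A fit on these 4 libraries alone called 307 members, beside 3704 of all 20250 transcripts tested. With a spread weighted by stage 481 members were called, beside 6269 of all transcripts.

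TCONS_00021950 (483 bases, chrX:63555044-63555526, plus strand) fell most from 4-cell to 8-cell. It had 96.1 and 37.4 TPM in oocytes, 1869 and 3097 at 1-cell, 3386 and 2786 at 2-cell, 115 and 162 at 4-cell, and 0 and 0.992 at 8-cell (log2 change -6.61, SE 0.76, adjusted p 0.0049). TCONS_00012350 (953 bases, chr2:152157111-152158063, minus strand) had 281 and 1648 TPM at 2-cell, 218 and 463 at 4-cell, and 3.47 and 1.68 at 8-cell (log2 change -6.53, SE 1.00, adjusted p 0.0054). TCONS_00011407 (1605 bases, chr2:132952723-132954327, plus strand) overlaps the RefSeq lncRNA Gm14102 and had 295 and 317 TPM at 1-cell, 75.5 and 136 at 4-cell, and 0 and 0.338 at 8-cell (log2 change -6.47, SE 0.91, adjusted p 0.0049). In each, both 8-cell libraries lay far below both 4-cell libraries.

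The 3 largest rises from 4-cell to 8-cell started from at most 3.14 TPM at 4-cell. TCONS_00009903 (738 bases, on chromosome 18) had 3.14 and 2.82 TPM at 4-cell, 61.3 and 70.8 at 8-cell and 94.8 and 84.4 in blastocysts (log2 change 4.07, SE 0.90, adjusted p 0.028). TCONS_00001031 and TCONS_00001030 lie next to each other on chromosome 1 (chr1:83986835-83987553 and chr1:83984766-83986278, minus strand), both within the RefSeq pseudogene Gm51636. Their 8-cell levels were 17.6 and 16.3 TPM, and 26.6 and 29.6 TPM, after at most 1.31 TPM at 4-cell (log2 changes 3.82 and 3.69).

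The length of the risers was uneven. Of all members, 52 were 1600 to 1649 bases long, against 15 and 21 in the neighbouring bins of 50 bases, and 35 of the 52 were among the 147 that rose to 1-cell (23.8% of the 147 against 3.54% of all members). These 52 lay on 15 chromosomes or scaffolds, 25 on the plus and 27 on the minus strand. The single-exon transcripts that overlap a gene had 95 in the same bin and 65 and 56 beside it. The bin was chosen after the lengths were seen, so no test is given. The 52 held 0.126 and 0.0228% of the TPM in oocytes, 1.28 and 1.57% at 1-cell, 1.93 and 2.18% at 2-cell, and 0.0214 and 0.0170% at 8-cell.

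**Figure D4:**
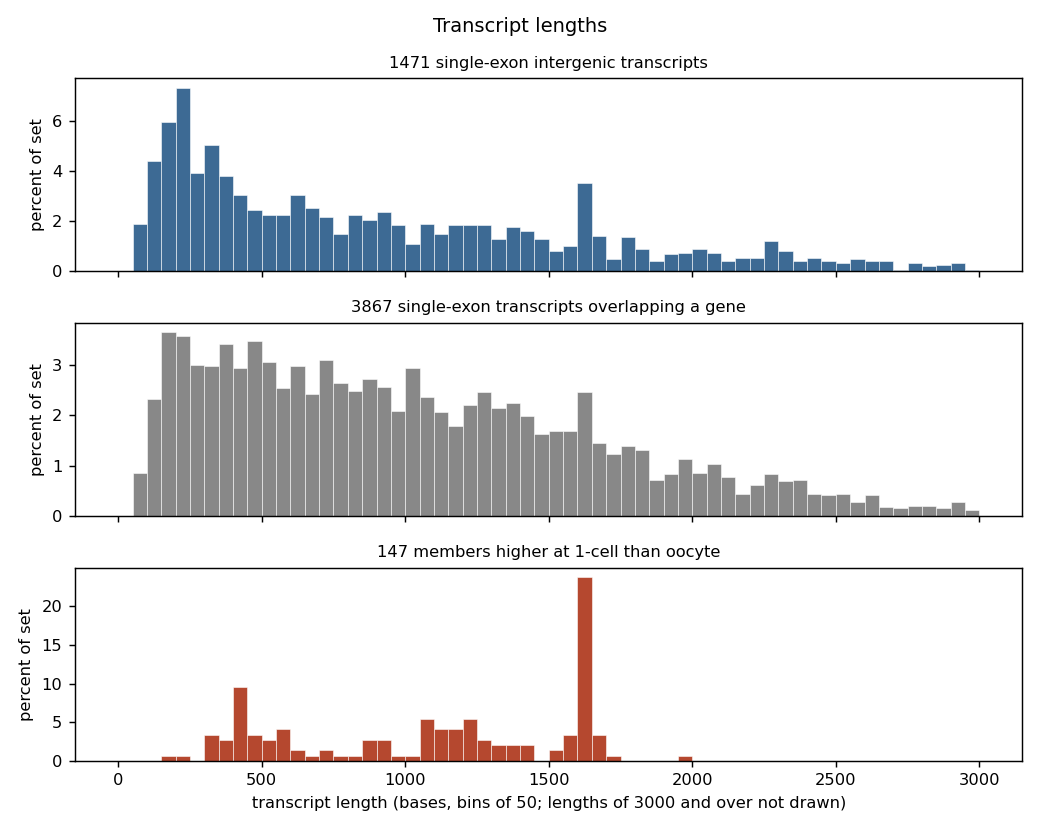
Transcript length in bins of 50 bases (horizontal axis) against the percent of each set (vertical axis), for all members, for single-exon transcripts that overlap a gene, and for the 147 members higher at 1-cell. The bin of 1600 to 1649 bases holds 3.54% of members, 2.46% of the gene-overlapping transcripts and 23.8% of the 147.

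The 3 members found in most stages by the long reads, with ties broken by level, all fell in that bin. TCONS_00005654 (1646 bases, chr13:44712670-44714315, minus strand, 15159 bases from Jarid2, a cofactor of Polycomb complexes) was found from oocyte to 8-cell. Its TPM was 162 and 32.3 in oocytes, 2202 and 2646 at 1-cell, 3616 and 3629 at 2-cell, 753 and 966 at 4-cell, 8.81 and 13.7 at 8-cell, and 3.32 and 1.36 in blastocysts. TCONS_00010998 (1624 bases, chr2:34759538-34761161, plus strand) reached 936 and 1276 TPM at 2-cell, and TCONS_00003411 (1642 bases, chr11:31343793-31345434, minus strand) 863 and 921. All 3 had at most 13.7 TPM at 8-cell and at most 0.695 TPM in sperm. The 66 members found in 3 or more stages were called higher at 1-cell in 22 of 62 tested (35.5%), beside 11.3% of all members and 1.92% of all transcripts.

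From 1-cell to 2-cell the calls were more numerous and the excess of members smaller. Of 1301 tested, 396 (30.4%, 95% interval 28.0 to 33.0%) were higher, beside 22.9% of all transcripts, and 16 (1.23%) were lower, beside 5.11%. With quantile normalization 270 were higher and 59 lower. The counts of calls were 216 and 197 without 1-cell replicate 1 or 2, 642 without 2-cell replicate 1, 193 with the spread weighted by stage, and 0 on the 4 libraries alone. Calls over all 20250 transcripts tested moved in the same direction in each of these fits. They went from 5664 in the main fit to 2270 with the weighted spread and 0 on the 4 libraries alone. In simulated data for this comparison, 45 calls were false beside 109 of 200 changes recovered. Over all members tested, 850 (65.3%) had both 2-cell libraries above both 1-cell libraries, beside 43.5% of all transcripts tested. Of the 396, 184 were also called higher in sperm than in oocytes, which is 46.5% of the 396 and 34.9% of the 527 higher in sperm, where 38.5% of all members tested were higher.

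Among the 10 largest rises, 9 were at or under 0.731 TPM in both 1-cell libraries. TCONS_00022215 (743 bases, chrX:18302602-18303344, minus strand) had 0.205 and 0 TPM at 1-cell and 283 and 951 at 2-cell (log2 change 8.89, SE 1.70, adjusted p 0.0028). After that it had 183 and 210.2 TPM at 4-cell, 184 and 0 at 8-cell, and 1.97 and 0 in blastocysts, so that replicates of the last 2 stages disagreed. TCONS_00014555 (880 bases, chr4:53328510-53329389, minus strand) was at 0 in both 1-cell libraries and at 311 and 497 TPM at 2-cell (log2 change 8.62, SE 1.20, adjusted p 0.00077). TCONS_00018050 (1273 bases, chr7:44161144-44162416, plus strand) had 0.660 and 0 TPM at 1-cell and 348 and 683 at 2-cell (log2 change 8.57, SE 1.39, adjusted p 0.0013). These 3 kept 6.90 to 184 TPM at 8-cell in all but the library at 0.

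Of the other rises, 5 were long and differed between the 2-cell replicates in the same way. TCONS_00002558 (2515 bases, chr11:7589424-7591938, plus strand) had 141 and 674 TPM at 2-cell after 0 in all oocyte and 1-cell libraries. TCONS_00005908 had 165 and 746 TPM at 2-cell, TCONS_00008320 118 and 456, TCONS_00013581 86.6 and 381, and TCONS_00004812 103 and 424. Their lengths were 1439, 1642, 1493 and 1547 bases. In each, 2-cell replicate 2 was the higher library, and the 4-cell replicates lay closer together (135 and 144 TPM for TCONS_00002558, 103 and 92.1 for TCONS_00008320). The remaining 2 were short. TCONS_00000029 (147 bases) had 161 and 188 TPM at 2-cell, and TCONS_00021805 (155 bases, on an unplaced scaffold) had 54.4 and 0.243 TPM at 1-cell, 1071 and 1115 at 2-cell, and 144 and 1340 in sperm.

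Among the 16 members that fell from 1-cell to 2-cell, the 4 largest falls were found in the long reads of oocytes or 1-cell embryos and had at most 3.65 TPM in any library after 2-cell. TCONS_00020817 (266 bases, chr9:68322870-68323135, plus strand) had 85.3 and 16.4 TPM in oocytes, 430.4 and 55.3 at 1-cell, and 0 in all 2-cell and 4-cell libraries (log2 change -7.28, SE 0.94, adjusted p 0.00065). TCONS_00001222 (177 bases) had 1520 and 692 TPM at 1-cell and 139 and 0 at 2-cell (log2 change -6.44, SE 1.75, adjusted p 0.017). TCONS_00000954 (302 bases, chr1:64747179-64747480, minus strand) was found in the long reads of oocyte, 1-cell, 2-cell and 4-cell, with 159 and 14.2 TPM in oocytes, 75.6 and 152 at 1-cell and 12.7 and 0 at 2-cell (log2 change -4.87, SE 1.19, adjusted p 0.010). TCONS_00002900 (chr11:76996872-76997771, plus strand) lies 832 bases before Slc6a4, the serotonin transporter gene, on the same strand, and had 50.4 and 22.5 TPM at 1-cell and 0.534 and 1.41 at 2-cell (log2 change -4.18, SE 0.80, adjusted p 0.0028). All 4 had reads in both oocyte libraries, at 6.99 to 159 TPM.

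The other 6 named falls ranged in log2 change from -3.23 to -2.52. They were TCONS_00000808, TCONS_00016687, TCONS_00015604, TCONS_00002563, TCONS_00017695 and TCONS_00020615. TCONS_00016687 (chr6:39872046-39872407, plus strand) starts 75 bases from Gm26833 and overlaps the RefSeq protein-coding gene Tmem178b. It fell from 58.5 and 33.3 to 8.52 and 2.16 TPM. TCONS_00020615 (chr9:25251765-25252262, plus strand) lies 177 bases before Sept7, a septin gene, on the same strand and inside the RefSeq gene Septin7, and fell from 4.85 and 5.88 to 0.231 and 0 TPM.

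Sperm and oocytes differed in 647 of the members tested, beside 45.8% of all transcripts. Of 1368, 527 (38.5%, 95% interval 36.0 to 41.1%) were higher in sperm, beside 29.3% of all 21568 transcripts tested, and 120 (8.77%) were higher in oocytes, beside 16.5%. With quantile normalization 469 and 195 were called. Without sperm replicate 1, which had the most Cd74, 513 were higher in sperm and 73 lower, and without sperm replicate 2 337 and 96. Without oocyte replicate 1 the counts were 478 and 57, and without oocyte replicate 2 374 and 177. The part of leukocyte or epididymal RNA in the members called higher in sperm was not tested.

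The 3 largest differences towards sperm were in transcripts of 138 to 434 bases. TCONS_00016772 (179 bases, chr6:65017107-65017285, plus strand) had 438 and 734 TPM in sperm and 0 in both oocyte libraries (log2 difference 9.15, SE 0.79, adjusted p 2.2e-06). TCONS_00003346 (434 bases, chr11:6709278-6709711, minus strand), found only in the long reads of sperm, had 756 and 290.2 TPM there and 0.262 and 0 in oocytes (log2 difference 8.71, SE 0.72, adjusted p 1.8e-06). It stayed at or under 7.55 TPM at every embryonic stage. TCONS_00012989 (138 bases, chr3:128899107-128899244, plus strand) had 170 and 555 TPM in sperm, 0 in both oocyte libraries, 3.72 and 4.05 at 1-cell, and 135 and 162 at 4-cell (log2 difference 8.27, SE 0.77, adjusted p 3.6e-06). Of these 3, TCONS_00016772 and TCONS_00012989 had at least 52.2 TPM in both 2-cell libraries.

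As a set, the 527 held 2.34 and 5.29% of the TPM in sperm, 0.210 and 0.0545% in oocytes, 0.160 and 0.128% at 1-cell, 0.965 and 1.88% at 2-cell and 1.26 and 1.40% at 4-cell. Long reads of sperm held 231 of the 527. Each 2-cell and 4-cell library lay above both 1-cell libraries. All 14 libraries entered the spread and the filter behind the 527, so these shares are a description. Of the 18 members on chromosome Y, which oocytes lack, 14 were found in the long reads of sperm. Together the 18 held 0.000156 and 3.08e-05% of the TPM in oocytes against 0.00576 and 0.0143% in sperm.

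Towards oocytes, the 3 largest differences were in members with still higher values at 1-cell and 2-cell. TCONS_00022282 (423 bases, chrX:50229425-50229847, minus strand) had 1.24 and 0 TPM in sperm and 946 and 124 in oocytes (log2 difference -7.85, SE 0.94, adjusted p 2.5e-05). It reached 9552 and 7588 TPM at 1-cell, the highest member there, and had 5630 and 4331 TPM at 2-cell, 837 and 999 at 4-cell and 23.0 and 26.6 at 8-cell. TCONS_00000385 (1631 bases, chr1:98642377-98644007, plus strand) had 0.141 and 0.763 TPM in sperm, 263 and 49.9 in oocytes, 1878 and 2102 at 1-cell and 2760 and 4244 at 2-cell (log2 difference -6.35, SE 0.90, adjusted p 8.6e-05). TCONS_00006932 (1279 bases, chr15:59801007-59802285, plus strand) was at 0 in sperm, at 208 and 23.6 TPM in oocytes and at 972 and 5349 at 2-cell (log2 difference -6.16, SE 1.03, adjusted p 0.00030). The first 2 were called higher at 1-cell than in oocytes, whereas TCONS_00006932 was not (adjusted p 0.21 by limma) and its step to 2-cell was not called either (adjusted p 0.26).

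From 2-cell to 4-cell, 21 members (1.61%, beside 1.46% of all transcripts) were higher and 48 (3.69%, beside 1.17%) lower. The counts rested on single libraries. Without either 4-cell library 0 and 1 members were called, without 2-cell replicate 1 139 and without 2-cell replicate 2 194. The split between directions was as unsteady, with 21 higher and 8 lower at a pseudocount of 0.1, and 113 higher and 81 lower without 2-cell replicate 2. A spread weighted by stage called 0, with 192 at an unadjusted p under 0.05, and the 4 libraries alone called 0, with 254. Over all 20250 transcripts tested the same fits called 1 and 0, beside 532 in the main fit. Calls over all transcripts also fell without a 4-cell library and rose without a 2-cell library.

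The 3 largest rises were members first seen above 3 TPM at 4-cell. TCONS_00013797 (2552 bases, chr4:55313847-55316398, plus strand) had 0.142 and 0.427 TPM at 2-cell, 40.6 and 30.3 at 4-cell, 39.3 and 30.3 at 8-cell, and 15.7 and 4.38 in blastocysts (log2 change 4.82, SE 0.67, adjusted p 0.013). TCONS_00022246 (591 bases, chrX:34546643-34547233, minus strand) had 0 and 0.704 TPM at 2-cell, 26.3 and 38.2 at 4-cell and 82.7 and 51.0 at 8-cell (log2 change 4.65, SE 0.77, adjusted p 0.019). TCONS_00013350 (1215 bases, chr3:93712158-93713372, minus strand) had 0.348 and 2.65 TPM at 2-cell and 53.8 and 46.8 at 4-cell (log2 change 4.53, SE 0.73, adjusted p 0.018). The long reads of 4-cell held each of the 3.

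The 3 largest falls at 4-cell were in members that had reads in both oocyte libraries. TCONS_00001152 (287 bases, chr1:125656888-125657174, minus strand) had 23.4 and 4.68 TPM in oocytes, 117 and 134 at 1-cell, 372 and 73.8 at 2-cell and 0 in both 4-cell libraries (log2 change -7.38, SE 0.89, adjusted p 0.013). TCONS_00016580 (108 bases, within the RefSeq lncRNA Gm35246) fell from 87.7 and 234 TPM to at most 0.454. TCONS_00008455 (381 bases, chr17:14181181-14181561, plus strand) fell from 2284 and 154 to 23.2 and 3.35 TPM, with 2-cell replicates far apart, and had 22.7 and 38.2 TPM in sperm and 12.9 and 5.86 at 8-cell.

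Between 8-cell and blastocyst 1 member was higher (0.0769%, beside 0.83% of all transcripts) and 7 were lower (0.538%, beside 1.28%). With quantile normalization 14 were higher and 15 lower, without 8-cell replicate 1 0 were called with 56 at an unadjusted p under 0.05, and without blastocyst replicate 1 29. Over all 20250 transcripts tested, quantile normalization called 757, beside 427 in the main fit. The member called higher, TCONS_00013715 (226 bases), was at 0 in both 8-cell libraries and at 38.2 and 7.35 TPM in blastocysts, after 2591 and 1330.0 TPM at 2-cell. Of those lower, TCONS_00006054, whose promoter window is printed above, had 47.7 and 41.7 TPM at 4-cell, 40.7 and 53.2 at 8-cell and 6.12 and 0.834 in blastocysts (log2 change -3.72, SE 0.73, adjusted p 0.024). TCONS_00013877 fell from 28.8 and 21.0 to 2.53 and 0 TPM (log2 change -3.77), and TCONS_00014440 from 33.4 and 23.2 to 2.34 and 2.04 TPM (log2 change -3.18).

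The highest level in any library, and several of the highest in 4-cell embryos, belonged to very short members. TCONS_00012549 (157 bases, chr3:5860615-5860771, plus strand) had 2115 and 7608 TPM in sperm, 609 and 2972 in oocytes, 1418 and 3936 at 1-cell, 19114 and 978 at 2-cell, 1402 and 684 at 4-cell, 5153 and 2123 at 8-cell, and 532 and 3744 in blastocysts. The replicates of a stage differed as much as the stages did, and no order of stages can be read from it. TCONS_00011674 (165 bases, chr2:177241366-177241530, plus strand) led at 4-cell with 1427 and 4583 TPM and had 44.1 and 0 in sperm. At 4-cell TCONS_00000498 (179 bases) had 705 and 1929 TPM and TCONS_00020655 (161 bases) 446 and 1171. All 3 were higher in oocyte replicate 1 (1632, 1327 and 2017 TPM) than in replicate 2 (110.5, 82.8 and 75.9 TPM). In sperm TCONS_00002248 (161 bases, chr10:78423046-78423206, minus strand, 2463 bases from Cstb, the cystatin B gene) followed with 971 and 1489 TPM.

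Under 200 bases there were 181 members, holding 0.401 to 3.07% of the TPM of a library. They were called higher at 1-cell in 1 of 156 tested (0.641%, beside 1.92% of all transcripts) and at 2-cell in 35 (22.4%, beside 22.9%). A TPM at such lengths is estimated from few positions at which a read can start. TCONS_00000260 (243 bases, chr1:76765898-76766140, plus strand), second in level at 1-cell with 3781 and 4349 TPM, had 4632 and 0 TPM in the 2-cell replicates. At the other end, the 3 longest members were TCONS_00013349 (6510 bases, at most 39.4 TPM, at 4-cell), TCONS_00005449 (6267 bases, at most 39.9 TPM, at 2-cell) and TCONS_00022462 (5877 bases, at most 7.29 TPM, in sperm).

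Members that start close to a gene of the other strand were called most often at 2-cell and in sperm. In all, 62 members (4.21%) started within 1000 bases upstream of the start of an opposite-strand gene, at a median of 214 bases, and for 43 that gene was protein-coding. From 1-cell to 2-cell 26 of 54 tested (48.1%) were higher, beside 30.4% of all members and 22.9% of all transcripts. Sperm exceeded oocytes in 33 of 56 (58.9%), beside 38.5% of all members and 29.3% of all transcripts. At 1-cell 1 of 54 was higher than in oocytes, beside 1.92% of all transcripts. Each was included by position alone, but the group was picked out after its values were seen, so no test is given.

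Of the divergent members printed above, 2 were found in the long reads of sperm only. TCONS_00010313 (933 bases, chr19:41264098-41265030, plus strand), opposite Tm9sf3, a gene of a multi-pass membrane protein, had 102 and 309.9 TPM in sperm and at most 0.355 in any other library (sperm over oocyte log2 difference 7.34, SE 0.58, adjusted p 1.2e-06). Tm9sf3 itself, as the sum over its transcripts, had 14.2 and 19.8 TPM in sperm and 7.58 to 36.6 elsewhere. Opposite Pigv, a mannosyltransferase gene of GPI anchor synthesis, TCONS_00014139 (737 bases, chr4:133672679-133673415, plus strand) had 85.2 and 323 TPM in sperm and at most 9.06 elsewhere (log2 difference 4.53, SE 0.78, adjusted p 0.00036). The first member lay above its gene in both sperm libraries, and Pigv had no merged transcript to compare.

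Other divergent members were present in embryos. TCONS_00007513 (619 bases, chr15:86213774-86214392, minus strand), opposite Tbc1d22a, was found in the long reads of 5 stages, with 2.43 and 1.43 TPM in oocytes, 2.90 and 1.19 at 1-cell, 69.4 and 165 at 2-cell and 65.1 and 106 in blastocysts (1-cell to 2-cell log2 change 5.21, SE 0.72, adjusted p 0.00077). TCONS_00010588 (928 bases, chr19:21271127-21272054, minus strand), opposite Zfand5, had 0.380 and 0.0749 TPM at 1-cell, 124 and 35.6 at 2-cell and 0.180 and 0.327 at 8-cell (log2 change 5.79, SE 0.67, adjusted p 0.00049). Zfand5 itself had 219 and 243 TPM in oocytes, where the member had at most 0.363. TCONS_00003331, opposite Dbnl, an actin-binding adaptor gene, had 0.390 and 0.247 TPM at 1-cell and 12.4 and 104 at 2-cell (log2 change 4.83, SE 0.84, adjusted p 0.0018). Its gene went from 2.95 and 0.944 to 49.1 and 8.52 TPM over the same step, with the higher value in the other replicate. TCONS_00014595 (224 bases), opposite Bspry, peaked at 4-cell with 129.8 and 278 TPM. Bspry had its highest mean at 2-cell with 247 and 45.7 TPM, beside 33.1 and 36.2 at 4-cell. Another member opposite Bspry, TCONS_00014594 (286 bases), also had its highest mean at 2-cell, with 10.0 and 123 TPM, beside 47.5 and 79.5 at 4-cell.

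**Figure D5:**
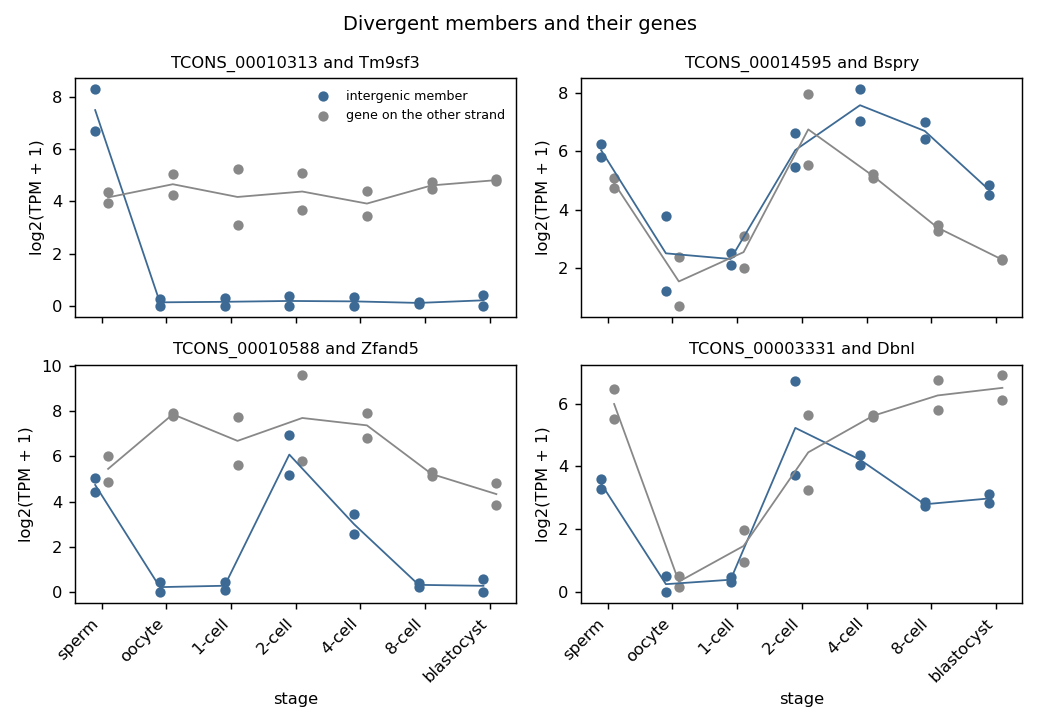
Levels of 4 divergent members (blue) and of the gene on the other strand (grey) at each stage, as log2(TPM + 1), with a point per library and lines through the means of 2. The Tm9sf3 member had reads only in sperm at more than 0.355 TPM, while the gene lay at 7.58 to 36.6 TPM in the other stages.

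For 40 of the 62 pairs the gene had a merged transcript. The gene was the higher of the pair, each taken at its own highest stage, in 33 of 40, with a median ratio of 2.83. Member and gene peaked at the same stage in 10 of 40. The median Spearman correlation over the 7 stage means was 0.395, as a description of pairs that share libraries.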

How the data were processed

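Single-exon intergenic transcripts were described from amplified cDNA libraries of 7 mouse stages, with 14 short-read libraries and 7 long-read pools. The authors aligned long reads to mm10 with GMAP, collapsed them per stage and merged the stages, and deposited the exon coordinates. The deposited TPM tables are the authors' salmon estimates for each merged transcript. The submitters' processing notes also name GSNAP, STAR and Cufflinks. Priming was with oligo(dT), so RNA with a poly(A) tail is favoured. TPM keeps no depth, so no count test was run. The paper lists the number of sequences of each library, which was not used here. The own-stage TPM tables were not used for tests.

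Groups are the stages in the sample titles. The 8-cell replicate numbers, which differ between label fields, follow the titles. Members were found by comparing exons with GENCODE vM21, and overlaps with RefSeq genes and promoter windows used GRCm38.p6. A gene's TPM is the sum over merged transcripts that share exon bases with it on the same strand. Each gene of a marker list is such a sum. Tests used limma 3.58.1 (trend) in R 4.3.3 on log2(TPM + 1). Stage was the only term, and the 12 oocyte and embryo libraries were fitted for the transitions and all 14 for sperm against oocyte. Transcripts had to reach 1 TPM in 2 or more libraries. Each comparison was adjusted by Benjamini-Hochberg over all transcripts tested, and calls have an adjusted p under 0.05. On simulated data for oocyte to 1-cell (20250 transcripts), 128 of 200 changes of 4 on the log2 scale were recovered with 2 false calls, and 0 of 200 changes of 2. From 1-cell to 2-cell, 109 of 200 changes of 4 were recovered with 45 false calls, more than an adjusted p under 0.05 is meant to allow. In the simulated data each transcript had 1 mean over all stages, and all transcripts shared 1 normal spread per stage, which real transcripts need not do.

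The members and lists were chosen with earlier results of these data known. Named members are, among called members whose groups do not overlap, the 10 largest rises and falls from 1-cell to 2-cell and the 3 largest of each direction in every other comparison. To these come the 2 highest in each stage, the 3 longest and the 3 found in most stages. The divergent members and the length bin were chosen after their values were seen. Alternatives were a pseudocount of 0.1, no filter or a TPM of at least 5, quantile normalization, 4-library fits, a replicate block, a spread weighted by stage, each library left out, and other distances to genes. Python 3.11.15, numpy 2.4.6, pandas 2.3.3 and matplotlib were used.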

Additional observations from a re-analysis of the deposited data

How the results depend on the processing

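The number of members was 1471, and 1329, 1523 and 1437 with a downstream limit of 5000 bases, with same-strand genes only, and without loci that hold a multi-exon transcript. The counts of called members that moved by over 1.5 times were these, and the cause was not tested. On the 4 libraries of a comparison 0 members were called on entry into 1-cell, 2-cell, 4-cell and blastocyst (240, 454, 254 and 252 at an unadjusted p under 0.05), 307 on entry into 8-cell and 230 for sperm against oocyte. With the spread weighted by stage the counts were 193 for 2-cell, 0 for 4-cell, 481 for 8-cell and 26 for blastocyst, each against the stage before. Over all 20250 transcripts tested, the 4 libraries called 0 on entry into 1-cell, 2-cell, 4-cell and blastocyst, and 3704 on entry into 8-cell. With the weighted spread the counts over all transcripts were 2270 for 2-cell, 1 for 4-cell, 6269 for 8-cell and 730 for blastocyst. For sperm against oocyte the 4 libraries called 4066 of 21568. From 2-cell to 4-cell, quantile normalization gave 183 and a pseudocount of 0.1 gave 29. From 8-cell to blastocyst the count was 29 with quantile normalization, 13 with no filter and 5 with a TPM of at least 5. Only members over 5000 bases from a gene gave 274 from 1-cell to 2-cell.

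With each library left out in turn, the count ranged from 0 to 167 for 1-cell, 197 to 642 for 2-cell, 0 to 194 for 4-cell, 0 to 1 for 8-cell, 0 to 29 for blastocyst, each against the stage before, and 433 to 586 for sperm against oocyte. A stage left with 1 library was assumed to vary like the others. No member named for a change reversed direction in that comparison under any alternative fit. All 6 named for sperm against oocyte stayed called in every alternative fit that kept both libraries of each gamete. Members named for level, length or number of stages were not followed in this way.

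Replicate numbers did not pair the libraries. The correlation of replicate differences ran from -0.486 to 0.413 over 21 pairs of stages, and 5 were over 0.1. With the replicate block 138, 358, 33, 111, 2 and 629 members were called, in the order of the comparisons above, so the counts for 4-cell and blastocyst moved.

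The planned shares of members with an A-rich stretch or a poly(A) signal were not computed, since they need a genome sequence that was not used here. TPM keeps no read counts, so levels near 0 cannot be told from no detection. Changes of 2 on the log2 scale were hardly recovered in simulated data, where all transcripts shared 1 spread per stage. In the real data a member was called higher at 2-cell with a log2 change of 1.41. A low count of calls does not show stable levels.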
